A study of Rattus norvegicus with 15 samples.

Results

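Transcripts of 49 proteins that hepatocytes release into the blood were followed in liver cells sorted by DNA content. They comprised 15 carriers and other transport or acute phase proteins, 13 coagulation factors and their partners, 9 anticoagulants and proteins of fibrinolysis, and 12 components of complement. The protease inhibitors Serpina1 and Serping1 were placed in the group of 9, although its name does not describe them well. Their probes were found by gene name, as those whose name in the array files was one of the 49 symbols. That rule uses no measured value, but the symbols were listed with earlier results of these data known. All 49 were on the array with 60 probes in total, and all 49 were among the 17417 features tested. Every one of the 60 probes was well above background on all 15 arrays, so no filter on dim signal removed a gene or an array.

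Hepatocytes of adult female Wistar rats were stained with the DNA dye Hoechst and separated by flow cytometry into 2c, 4c and 8c fractions, where 2c stands for the DNA of a diploid cell before replication. The study compared the transcriptomes of these ploidy classes. Each of 5 experiments gave 1 array per fraction, so n = 5 per fraction. Experiment 1 used rats of 12 weeks, experiment 2 of 14, experiment 3 of 6, experiment 4 of 5 and experiment 5 of 6 weeks. No animal was treated and all fractions came from the same strain and sex. The labels do not give the number of animals behind an experiment, and a cell with a 4c content may be tetraploid or a diploid cell that has replicated its DNA, which the sort cannot tell apart.

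Plasma proteins are made in the rough endoplasmic reticulum of hepatocytes and secreted without storage, so the abundance of their transcripts is a main determinant of their output. The coagulation factors circulate as inactive precursors that activate each other in a cascade ending in fibrin, which plasmin later dissolves, while the complement proteins form a second cascade that marks and lyses microbes. Many of these genes are also acute phase genes, which the liver raises or lowers during inflammation through transcription factors such as C/EBP and STAT3. A polyploid hepatocyte carries several copies of each of these genes, but each array was scaled to itself, so the values are shares of the transcriptome and not amounts per cell. In sorted bulk samples, fewer cells of a type and less RNA per cell cannot be told apart.

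The 250 bases before the start of the gene are printed for Orm1 and Ahsg, which varied most between the experiments, for the 3 fibrinogen genes, whose chains form 1 protein, and for C6, which had the smallest unadjusted p of the members in 8c against 2c. They come from RefSeq on the GRCr8 assembly, where 42 of the 49 members could be matched, and run 5′ to 3′ on the strand of the gene. Capitals mark matches, on either strand, to TTGCNNAA (a C/EBP motif), CTGGGAA (a STAT3 motif) and GTTAAT (part of an HNF1 site).
Orm1 (chr5:81788259-81788508, plus strand): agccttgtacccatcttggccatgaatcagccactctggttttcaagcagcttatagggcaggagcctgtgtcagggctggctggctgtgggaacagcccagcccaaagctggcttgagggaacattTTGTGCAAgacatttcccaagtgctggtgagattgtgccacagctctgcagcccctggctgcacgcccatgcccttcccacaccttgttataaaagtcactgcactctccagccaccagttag
Ahsg (chr11:91632584-91632833, minus strand): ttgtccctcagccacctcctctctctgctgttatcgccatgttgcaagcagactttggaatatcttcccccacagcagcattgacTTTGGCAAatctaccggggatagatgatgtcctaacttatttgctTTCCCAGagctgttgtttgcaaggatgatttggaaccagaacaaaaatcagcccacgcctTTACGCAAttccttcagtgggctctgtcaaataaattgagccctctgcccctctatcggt
Fga (chr2:170671919-170672168, plus strand): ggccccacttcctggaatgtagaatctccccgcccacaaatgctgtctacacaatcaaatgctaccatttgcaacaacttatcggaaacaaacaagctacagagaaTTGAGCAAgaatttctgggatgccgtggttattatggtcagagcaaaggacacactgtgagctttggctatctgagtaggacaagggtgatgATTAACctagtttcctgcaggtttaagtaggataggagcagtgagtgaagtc
Fgb (chr2:170700876-170701125, minus strand): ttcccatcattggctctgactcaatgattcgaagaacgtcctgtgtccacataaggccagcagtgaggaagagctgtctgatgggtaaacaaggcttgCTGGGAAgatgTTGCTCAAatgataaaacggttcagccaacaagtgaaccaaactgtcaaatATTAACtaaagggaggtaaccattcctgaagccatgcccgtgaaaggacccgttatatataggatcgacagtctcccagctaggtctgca
Fgg (chr2:170652833-170653082, plus strand): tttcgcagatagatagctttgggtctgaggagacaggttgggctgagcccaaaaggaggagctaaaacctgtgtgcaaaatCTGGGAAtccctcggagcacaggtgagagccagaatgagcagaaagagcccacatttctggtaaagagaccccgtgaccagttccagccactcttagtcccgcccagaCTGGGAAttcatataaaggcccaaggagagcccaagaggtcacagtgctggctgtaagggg
C6 (chr2:55573383-55573632, plus strand): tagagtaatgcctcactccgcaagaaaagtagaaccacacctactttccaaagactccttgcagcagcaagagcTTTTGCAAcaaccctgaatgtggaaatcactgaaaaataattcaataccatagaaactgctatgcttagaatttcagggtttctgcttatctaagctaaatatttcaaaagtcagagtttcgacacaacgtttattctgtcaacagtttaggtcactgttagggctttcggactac

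The C/EBP letters occurred in 19 of the 42 windows (45.2%), against 9.22% of all 33469 promoter windows of that length. The HNF1 letters occurred in 12 members (28.6%, all windows 6.45%) and the STAT3 letters in 11 (26.2%, all windows 9.56%). The letters TGTTCT, part of a glucocorticoid receptor site, were found in 4 members (9.52%) and in 17.5% of all windows, and TATAAA, the TATA box, in 6 (14.3%) and 12.9%. CAAAGTCCA, an HNF4 site, was in 0 of the 42 and in 0.338% of all windows. No match of the C/EBP, STAT3 and HNF1 letters shared bases with a match of another of these motifs. A match describes these letters only and was not tested as a binding site.

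The probes of the genes on which the comparison turns follow, with their rn4 positions from the array files, 5′ to 3′ and with no part set in capitals. The second Proc probe has no position in the files and is not printed, and the array's Kng1 probe is shown because its accession belongs to the gene that RefSeq now calls Kng2. It is called Kng1 here, as in the files.
C6, brighter probe (chr2:53764375-53764434, plus strand): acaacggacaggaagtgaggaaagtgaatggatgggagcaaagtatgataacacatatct
C6, dimmer probe (chr2:53748389-53748448, plus strand): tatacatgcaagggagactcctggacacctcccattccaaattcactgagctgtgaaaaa
Proc, dimmer probe (chr18:24567131-24567190, minus strand): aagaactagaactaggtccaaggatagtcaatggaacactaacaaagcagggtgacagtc
Kng1 of the array (chr11:80127612-80127772, plus strand): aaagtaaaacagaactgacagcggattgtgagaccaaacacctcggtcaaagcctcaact

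The shares of the plasma protein transcripts differed little between 2c, 4c and 8c hepatocytes. No member passed an adjusted p of 0.05 in any comparison (limma with the experiment as a block, Benjamini-Hochberg over all features). Between 8c and 2c, 0 of 49 were higher and 0 lower, where 0.81% of all features were called higher and 1.54% lower. For 4c against 2c the members again gave 0 and 0, beside 0.23% and 0.924% of all features, and for 8c against 4c 0 and 0, beside 0.609% and 0.0115%. At an unadjusted p of 0.05 there were 6 members (12.2%) in 8c against 2c, 7 (14.3%) in 4c against 2c and 4 (8.16%) in 8c against 4c, where all features gave 14.9%, 15.9% and 7.69%. The members were thus close to the background rate without adjustment as well.

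The precision of the arrays allowed small differences to be bounded. The median standard error of a member's difference was 0.086 on the log2 scale, against 0.12 over all features. The 95% interval of the 8c to 2c difference lay within a 1.5-fold change for 45 of 49 members (91.8%, all features 68.6%), and the exceptions were F13b, Proc, Pros1 and C5. In 4c against 2c it lay within that range for 45 members (91.8%, all features 67.8%), and in 8c against 4c for 44 (89.8%, all features 71.6%). In each comparison these included Ttr, Alb, C3, Rbp4, Ambp, Itih4 and Hp, whose scaled levels followed the brightness of the array, as described below. For these 7 the interval bounds the scaled level, and whether it also bounds the transcript was not tested. The median difference of the members was -0.01 for 8c against 2c, -0.02 for 4c against 2c and -0.02 for 8c against 4c, beside -0.02, -0.03 and 0.00 over all features. Only Proc in 4c against 2c differed by more than 1.5-fold, as did 5.2% of all features. In no comparison were the 5 arrays of one fraction all above those of the other for any member. Such separate groups were rare among all features too, at 1.35% between 8c and 2c, 1.32% between 4c and 2c and 0.551% between 8c and 4c. Their absence among 49 members is thus close to the background.

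**Figure D1:**
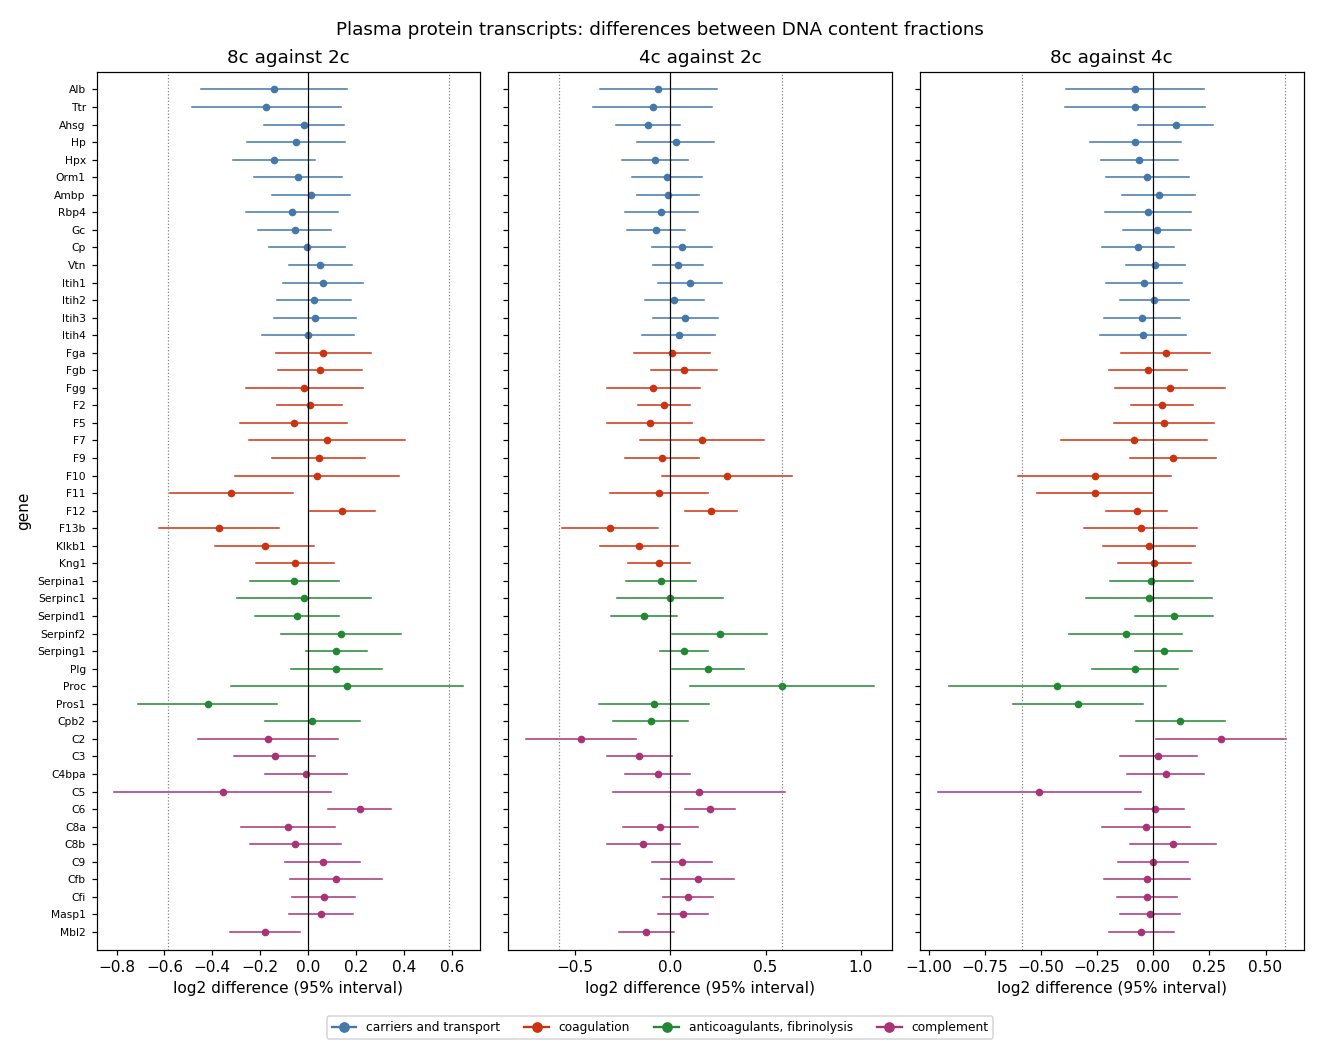
Log2 differences of the 49 members with their 95% intervals from the blocked fit over 15 arrays, with a panel for each of the 3 comparisons, coloured by role; dotted lines mark a 1.5-fold change. Most intervals lie inside the dotted lines and span 0, and Proc, Pros1, F13b, C2 and C5 lie farthest from it.

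Among the carriers, 5 of 15 had a positive and 10 a negative difference between 8c and 2c, with a median of -0.02 and a range from -0.18 (Ttr) to 0.06 (Itih1), and none reached an unadjusted p of 0.05 in any comparison. Alb, the main protein of plasma, had log2 levels of 6.58, 7.28, 7.22, 6.98 and 7.43 in the 2c fraction of experiments 1 to 5, 6.73, 7.22, 7.57, 6.89 and 6.78 in 4c, and 6.62, 7.44, 6.96, 6.76 and 6.99 in 8c, where 0 is the array's 75th percentile. The fractions overlapped over nearly their whole range, and the 8c to 2c difference was -0.14 (SE 0.14, adjusted p = 0.69 in limma, lower in 3 of 5 experiments). Ttr, which carries thyroid hormone and binds the retinol carrier, gave 7.24, 7.96, 7.93, 7.66 and 8.11 in 2c, 7.36, 7.87, 8.25, 7.53 and 7.43 in 4c, and 7.26, 8.08, 7.60, 7.44 and 7.64 in 8c. Its difference was -0.18 (SE 0.14, adjusted p = 0.62 in limma). As with Alb, the highest and lowest arrays were the same in both genes, 4c of experiment 3 and 2c of experiment 1.

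The scaled values of the brightest members followed the brightness of the array. The scaling point, which is the log2 signal subtracted from each array, ran from 8.47 in 4c of experiment 3 to 9.52 in 2c of experiment 1, a 2.07-fold range. Before scaling, the Ttr signal lay between 100365 and 116964 on all 15 arrays and that of Alb between 62731 and 75511. After scaling, the correlation of the level with the scaling point over the 15 arrays was -0.99 for Ttr (Spearman -0.996, -0.98 without the 2 arrays farthest from the median) and -0.98 for Alb (Spearman -0.99, -0.97 without those). It held within each slide, at -0.99 and -0.98 for Ttr and -0.98 and -0.97 for Alb on the first and second. These arrays share experiments and the scaling point enters the level itself, so an unscaled signal that stayed constant would by itself give -1. The Alb values are of the brighter of its 2 probes. The other had a mean level of 6.97 against 7.03 but did not run alike. It was at 6.83 in 2c of experiment 1 and 6.75 in 2c of experiment 2, where the brighter gave 6.58 and 7.28.

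C3, Rbp4, Ambp, Itih4 and Hp also had correlations below -0.8, which made 7 of 49 members, beside 1.24% of all features. Their signals reached 121358, no spot was saturated, and the brightest probe of any gene reached 148019. The part of the array's signal range in the levels of these 7 was not tested. C3, the central component of complement, had 2c levels of 7.36, 7.70, 7.64, 7.44 and 7.86, 4c levels of 7.20, 7.57, 7.59, 7.41 and 7.40, and 8c levels of 7.18, 7.72, 7.47, 7.40 and 7.52. It was lower in 4c than in 2c in 5 of 5 experiments, with a mean difference of -0.16 and a 95% interval from -0.33 to 0.01 (adjusted p = 0.33 in limma), and the groups overlapped. Hp, the haemoglobin scavenger haptoglobin, had 7.07, 7.47, 7.49, 7.55 and 7.81 in 2c, 7.27, 7.64, 7.63, 7.47 and 7.53 in 4c, and 7.09, 7.74, 7.50, 7.29 and 7.51 in 8c. Its 8c to 2c difference was -0.05 (SE 0.09), with 3 experiments higher and 2 lower.

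**Figure D2:**
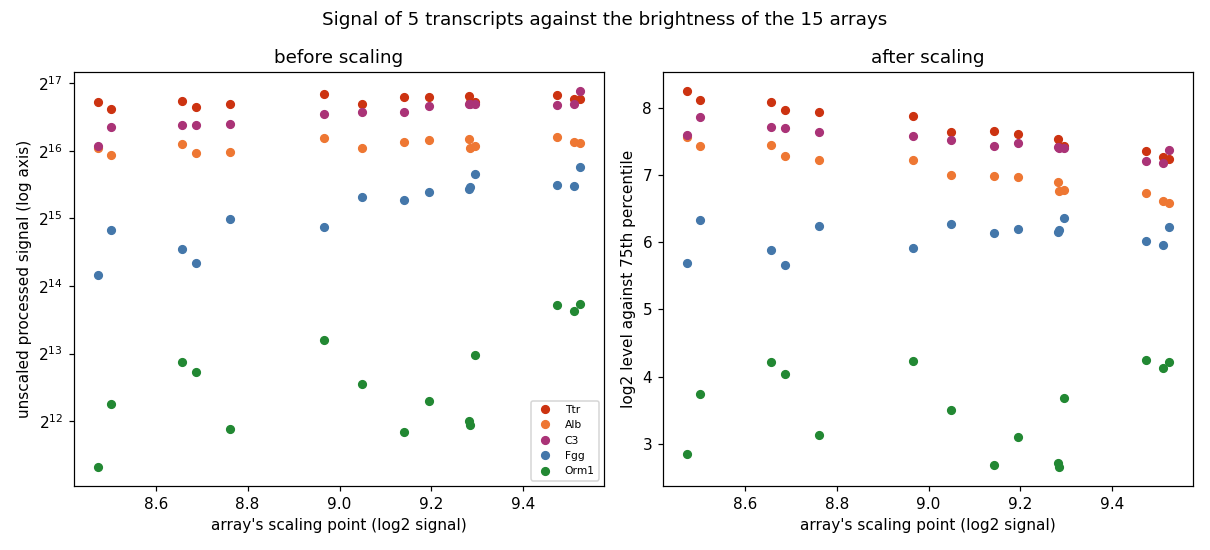
Signal of Ttr, Alb, C3, Fgg and Orm1 on the 15 arrays against each array's scaling point, before scaling on a log axis (left) and after scaling in log2 units (right), 1 point per array. Ttr stays between 100365 and 116964 before scaling and so falls steadily with the scaling point after it, while Orm1 shows no such order.

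The fibrinogen genes, whose 3 chains assemble into the precursor of fibrin, did not differ between the fractions beyond their spread on the brightest probe of each. Fga gave 6.00, 5.59, 6.16, 6.02 and 6.22 in 2c, 5.93, 5.84, 5.81, 6.13 and 6.33 in 4c, and 5.91, 5.74, 6.22, 6.11 and 6.32 in 8c. For Fgb the levels were 6.40, 6.26, 6.64, 6.89 and 6.83 in 2c, 6.57, 6.35, 6.75, 6.80 and 6.90 in 4c, and 6.43, 6.47, 6.90, 6.65 and 6.81 in 8c. Fgg had 6.23, 5.66, 6.23, 6.13 and 6.33 in 2c, 6.02, 5.91, 5.69, 6.15 and 6.36 in 4c, and 5.96, 5.88, 6.19, 6.18 and 6.28 in 8c. All 3 were lowest on average in experiment 2, and Fga and Fgg were also low in 4c of experiment 3 while Fgb was not. The 8c to 2c differences were 0.06 (SE 0.09) for Fga, 0.05 (SE 0.08) for Fgb and -0.02 (SE 0.11) for Fgg, with an adjusted p of 0.797, 0.825 and 0.965 in limma. The farthest limit of these 3 intervals was a 1.199-fold change. For Fga these are values of the brighter of its 2 probes. The dimmer one gave 0.33 for 4c against 2c (SE 0.12), with 4c above 2c in every experiment, and 0.15 for 8c against 2c (SE 0.12). In experiment 3 the dimmer probe was at 3.17 in 4c and 2.73 in 2c, so it was not low there.

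Of the vitamin K dependent enzymes, F2, which is prothrombin, varied least. Its levels were 6.63, 6.74, 6.79, 6.63 and 6.87 in 2c, 6.57, 6.72, 6.66, 6.77 and 6.78 in 4c, and 6.53, 6.83, 6.75, 6.75 and 6.84 in 8c, and the difference between 8c and 2c was 0.01 (95% interval -0.13 to 0.14). F9, the factor missing in haemophilia B, had 3.28, 3.27, 3.15, 2.88 and 3.18 in 2c, 3.17, 3.25, 2.79, 3.11 and 3.21 in 4c, and 3.11, 3.30, 3.11, 3.16 and 3.29 in 8c. The 2c array of experiment 4 and the 4c array of experiment 3 were the low ones, and the difference was 0.04 (SE 0.09). F10, the protease of the complex that activates prothrombin, showed 3.28, 2.96, 3.11, 3.75 and 3.36 in 2c, 3.81, 3.14, 3.37, 3.64 and 3.995 in 4c, and 3.62, 3.03, 3.53, 3.02 and 3.44 in 8c. It had the second largest positive difference between 4c and 2c, 0.30 (SE 0.15, adjusted p = 0.38 in limma, 4 of 5 experiments), and experiment 4 went the other way.

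F12, which starts the contact pathway, moved in the same direction in every experiment but by little. Its levels were 4.85, 4.93, 4.75, 4.77 and 4.81 in 2c, 5.02, 5.22, 5.09, 4.89 and 4.97 in 4c, and 4.92, 5.17, 5.04, 4.82 and 4.87 in 8c. Each 4c and each 8c array lay above the 2c array of its experiment, and within every experiment 4c was the highest, although the groups overlapped across experiments. The difference was 0.22 in 4c against 2c (SE 0.06, adjusted p = 0.13 in limma) and 0.14 in 8c against 2c (SE 0.06, adjusted p = 0.32 in limma), neither past the threshold. It stayed positive for 4c against 2c under all 19 other settings, at 0.14 to 0.28, and passed under 1 of them, limma with array weights (adjusted p = 0.029, range 0.029 to 0.82 over the settings).

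F13b, the carrier subunit of the fibrin-crosslinking factor XIII, was lower in 8c than in 2c in 5 of 5 experiments without passing the test. The 2c levels were 0.04, -0.94, -0.38, -0.51 and -0.64, the 4c levels -0.61, -1.01, -0.92, -0.95 and -0.53, and the 8c levels -0.65, -0.98, -0.92, -1.03 and -0.72. The 2c arrays were widely spread and that of experiment 1 was the highest, while that of experiment 2 lay within the range of 8c. The 8c to 2c difference was -0.37 (SE 0.11, adjusted p = 0.15 in limma) and that of 4c against 2c was -0.32 (SE 0.11, adjusted p = 0.22 in limma, lower in 4 of 5). Klkb1, plasma prekallikrein, also had its highest array in 2c of experiment 1, at 1.77, with 1.13, 1.33, 1.04 and 1.06 in the other 2c arrays. Its 4c levels were 1.30, 1.0998, 0.99, 1.06 and 1.05, its 8c levels 1.36, 1.05, 0.86, 1.03 and 1.11, and the 8c to 2c difference was -0.18 (SE 0.09, adjusted p = 0.40 in limma).

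Of the 13 coagulation genes, 7 had a positive and 6 a negative 8c to 2c difference, with a median of 0.01. F11, a protease of the contact pathway, was lower in 8c than in 2c in 5 of 5 experiments, with differences from -0.85 to -0.06 (mean -0.32, SE 0.12, adjusted p = 0.22 in limma). F5 and F7, a cofactor and the tissue factor dependent protease, differed by -0.06 and 0.08, and Kng1, a kininogen, by -0.06.

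Of the anticoagulants, Proc, the precursor of activated protein C, had the largest difference of all members. Its levels were 2.76, 3.39, 3.32, 4.38 and 3.29 in 2c, 4.04, 3.59, 4.15, 4.18 and 4.11 in 4c, and 3.56, 3.43, 3.98, 3.49 and 3.48 in 8c. In 4 of 5 experiments the 4c array was above the 2c array, and in experiment 4 the 2c array was the highest of all 15. The 4c to 2c difference was 0.59 (SE 0.22, 95% interval 0.11 to 1.07, adjusted p = 0.23 in limma), and 8c lay below 4c in 5 of 5 experiments, with a mean difference of -0.43 (SE 0.22, adjusted p = 0.66 in limma). Both Proc probes gave the same 4c to 2c difference of 0.59. For 8c against 2c the brighter probe gave 0.16 and the printed one -0.06.

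Pros1, protein S, the cofactor of activated protein C, was lower in 8c than in 2c in 5 of 5 experiments, with the largest negative difference of any member in that comparison. It had 1 probe with dim signal, between 15 and 53 before scaling. The levels were -3.79, -4.39, -3.96, -3.97 and -3.83 in 2c, -3.99, -3.96, -4.30, -3.95 and -4.17 in 4c, and -4.02, -4.72, -4.26, -4.62 and -4.42 in 8c. The 2c array of experiment 2 lay among the 8c arrays, and the difference was -0.42 (SE 0.13, adjusted p = 0.16 in limma). Between 8c and 4c it was -0.33 (SE 0.13, adjusted p = 0.62 in limma).

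Serpinc1, antithrombin, gave 4.69, 4.09, 4.41, 4.55 and 4.42 in 2c, 4.59, 4.24, 4.004, 4.53 and 4.78 in 4c, and 4.56, 4.09, 4.58, 4.21 and 4.61 in 8c. The fractions differed by -0.02 (SE 0.13) for 8c against 2c, and its dimmer probe gave -0.07 (SE 0.14). Plg, the precursor of plasmin, had 5.59, 6.11, 5.99, 6.01 and 6.04 in 2c, 5.92, 6.15, 6.49, 6.16 and 6.02 in 4c, and 5.91, 6.21, 6.11, 6.05 and 6.05 in 8c. It was higher in 8c than in 2c in 5 of 5 experiments, by 0.01 to 0.32 (mean 0.12, SE 0.09, adjusted p = 0.58 in limma). Serpinf2, which inhibits plasmin, was higher in 4c than in 2c in 5 of 5 experiments. Its 2c levels were 2.49, 2.65, 2.87, 3.35 and 3.01, its 4c levels 2.95, 2.74, 3.08, 3.41 and 3.47, and its 8c levels 2.74, 2.72, 3.37, 3.04 and 3.17, with a 4c to 2c difference of 0.26 (SE 0.11, adjusted p = 0.30 in limma).

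Cpb2, a carboxypeptidase that slows fibrinolysis, had levels of 2.05, 1.71, 2.06, 1.94 and 1.86 in 2c, 1.76, 1.86, 1.71, 1.95 and 1.81 in 4c, and 1.80, 2.03, 1.96, 2.10 and 1.81 in 8c. No fraction stood apart, and 8c exceeded 4c by 0.12 (SE 0.09). Over the 9 anticoagulant and fibrinolysis genes, 5 differences between 8c and 2c were positive and 4 negative, with a median of 0.02. Serping1, the C1 inhibitor, was higher in 8c in 5 of 5 experiments, by 0.03 to 0.17.

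**Figure D3:**
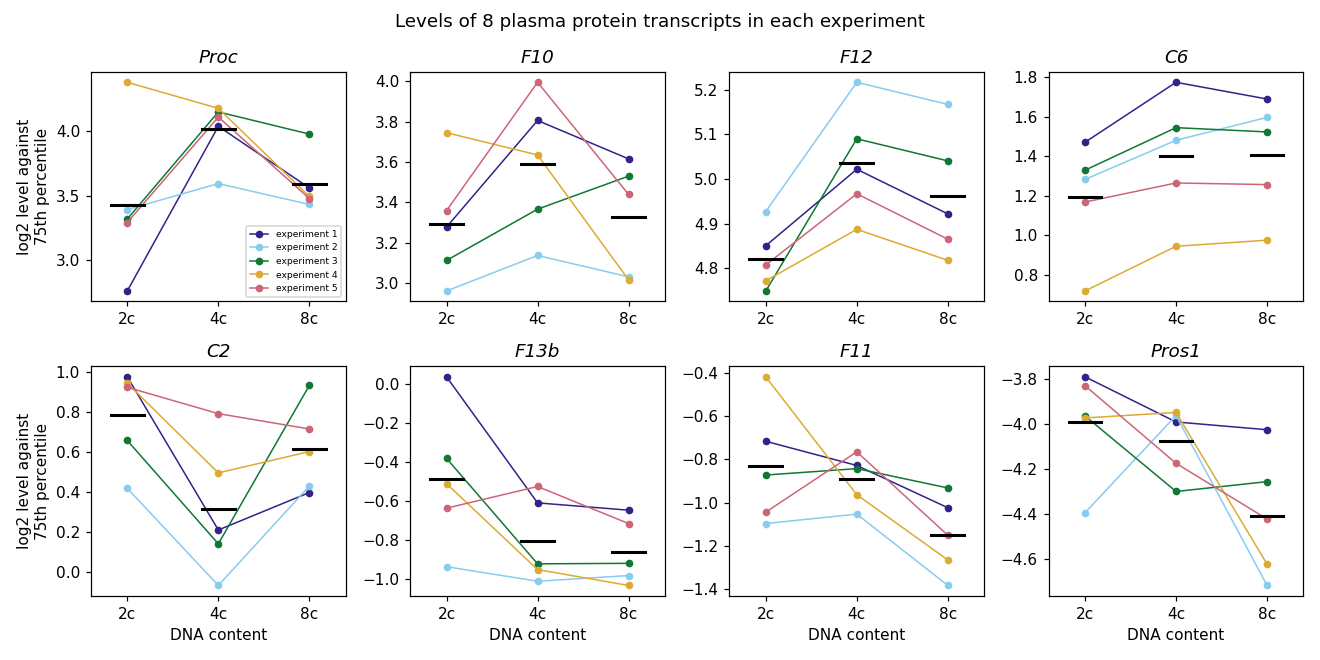
Log2 levels of Proc, F10, F12, C6, C2, F13b, F11 and Pros1 in 2c, 4c and 8c cells, with a line for each of the 5 experiments and a black bar at the mean of each fraction. F12 and C6 run upwards from 2c to 4c in every experiment and C2 runs downwards, while Proc and F10 show 1 experiment that goes the other way.

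C6, a subunit of the membrane attack complex, had the smallest unadjusted p of the members in 8c against 2c. The levels were 1.47, 1.28, 1.33, 0.72 and 1.17 in 2c, 1.77, 1.48, 1.54, 0.94 and 1.26 in 4c, and 1.69, 1.60, 1.52, 0.97 and 1.26 in 8c. Every 4c and 8c array was above the 2c array of its experiment, and all 3 arrays of experiment 4 were the lowest, so the groups overlapped. The difference was 0.21 in 8c against 2c (SE 0.06, 95% interval 0.08 to 0.35, adjusted p = 0.11 in limma) and 0.21 in 4c against 2c (SE 0.06, adjusted p = 0.13 in limma).

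Its direction was kept under all 19 other settings in both comparisons. In limma, C6 passed with normexp background correction followed by quantile normalization in 8c against 2c (adjusted p = 0.040, range over the settings 0.040 to 0.999). In 4c against 2c it passed in limma with normexp (adjusted p = 0.045) and with array weights (adjusted p = 0.040, range over the settings 0.040 to 0.98). The dimmer C6 probe gave 0.33 for 4c against 2c (SE 0.09) and 0.07 for 8c against 2c (SE 0.09).

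C2, the protease of the classical pathway convertase, was lower in 4c than in 2c in 5 of 5 experiments, the largest negative difference of that comparison. The levels were 0.97, 0.42, 0.66, 0.94 and 0.92 in 2c, 0.21, -0.07, 0.14, 0.49 and 0.79 in 4c, and 0.40, 0.43, 0.93, 0.60 and 0.71 in 8c. The 4c arrays of experiments 1, 2 and 3 were below every array of the other fractions, while those of experiments 4 and 5 lay among them. The 4c to 2c difference was -0.47 (SE 0.13, adjusted p = 0.13 in limma), and 8c exceeded 4c by 0.30 (SE 0.13, adjusted p = 0.64 in limma, 4 of 5 experiments). C5, which the convertases cleave to start the membrane attack, had dim signal and wide spread, with 2c levels of -5.02, -4.59, -4.82, -4.65 and -4.47, 4c levels of -4.72, -4.50, -4.004, -4.91 and -4.66, and 8c levels of -5.26, -4.49, -5.60, -5.31 and -4.67. Its 8c to 4c difference of -0.51 (SE 0.20, adjusted p = 0.63 in limma) rested mostly on experiment 3, where it was -1.60.

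The other complement members stayed within narrow limits. C8a, C8b and C9, which complete the pore, differed between 8c and 2c by -0.08, -0.05 and 0.06, and Cfb and Cfi, the protease of the alternative pathway and a protease that breaks down C3b, by 0.12 and 0.06. Mbl2, a lectin that starts the lectin pathway, was lower in 8c in 5 of 5 experiments, with a mean difference of -0.18 (SE 0.07, adjusted p = 0.22 in limma). Of the 12 complement genes 5 had a positive and 7 a negative difference, with a median of -0.03. Masp1, the protease of the lectin pathway, had 3 probes that did not move alike. The brightest gave 0.05 (SE 0.05) for 8c against 2c and the dimmer ones -0.36 (SE 0.12) and -0.46 (SE 0.15), and 1 of the dimmer probes was at -1.52 in 2c of experiment 1 and between -3.29 and -2.23 on the other arrays.

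Of the 10 members with several probes, all probes of a gene had the same sign in 6 genes for 8c against 2c, in 9 for 4c against 2c and in 4 for 8c against 4c. Hence the direction of a small difference depended on the probe for several genes, Masp1 and Proc among them. Members in the same direction in 5 of 5 experiments numbered 8 in 8c against 2c (16.3%, all features 15.2%), 6 in 4c against 2c (12.2%, all features 13.8%) and 4 in 8c against 4c (8.16%, all features 13.4%).

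The plasma protein transcripts, like most features, differed more between experiments than between fractions. The median member had 65.5% of its sum of squares over the 15 arrays between experiments, 6.46% between fractions and 23.8% in the residual, where the median feature had 54.3%, 9.42% and 30.1%. For 44 of 49 members (89.8%) the share between experiments was the larger, as for 88.5% of all features. The exceptions were C2, F11, Proc, Pros1 and C5. The share between experiments is taken over 5 means and that between fractions over 3, which by itself favours the experiments. The median SD over the 15 arrays was 0.21 for the members and 0.31 for all features. The median share between experiments was 77.4% for the carriers, 51.2% for coagulation, 55.6% for anticoagulants and fibrinolysis, and 65.3% for complement. The carriers include Alb, Ttr, Hp, Ambp, Rbp4 and Itih4, whose levels followed the array's scaling point.

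**Figure D4:**
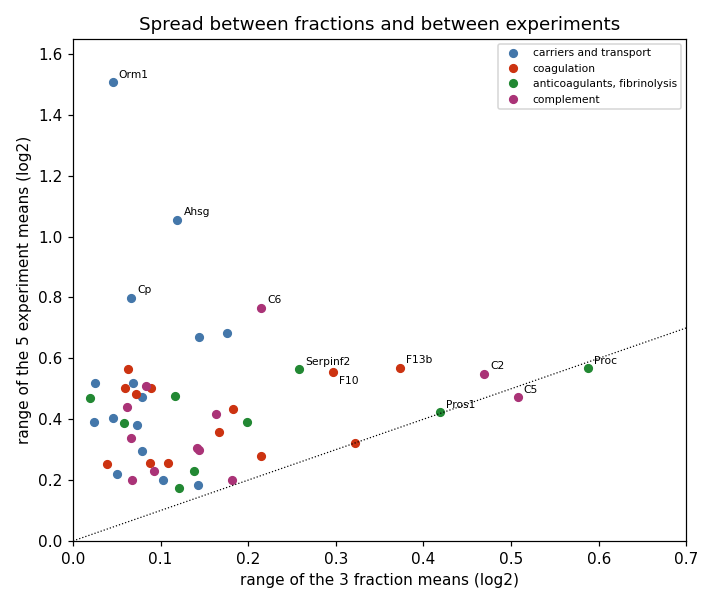
Range of the 5 experiment means (vertical, log2) against the range of the 3 fraction means (horizontal, log2) of each member, coloured by role; the dotted line marks equal ranges. Nearly all members lie above the line, and Orm1 and Ahsg have the largest range between experiments.

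Orm1, alpha-1-acid glycoprotein, was the extreme case, with 98.0% of its sum of squares between experiments. In experiment 1 it stood at 4.21, 4.25 and 4.12 in 2c, 4c and 8c, in experiment 2 at 4.05, 4.23 and 4.22, in experiment 3 at 3.13, 2.85 and 3.099, in experiment 4 at 2.69, 2.72 and 2.65, and in experiment 5 at 3.75, 3.69 and 3.50. The difference from 2c within an experiment was at most -0.28 in size (4c, experiment 3), while the experiment means ranged over 1.51, and the 8c to 2c difference was -0.05 (SE 0.08). Ahsg, fetuin-A, ran in the other direction. Its levels were 6.07, 5.94 and 6.02 in experiment 1, 6.17, 6.21 and 6.35 in experiment 2, 6.90, 6.70 and 7.02 in experiment 3, 7.19, 7.05 and 6.96 in experiment 4, and 7.03, 6.87 and 6.91 in experiment 5. Its share between experiments was 95.6%, and its 8c to 2c difference was -0.02 (SE 0.08). These Ahsg values are of the brighter of its 2 probes. The dimmer one was at 0.90, 0.67 and 1.04 in 2c, 4c and 8c of experiment 2 and at 0.61, 0.55 and 0.48 in experiment 4. Cp, ceruloplasmin, which carries copper, followed with a share of 93.3% and experiment means of 3.47, 3.00, 2.95, 2.68 and 3.26 on its brighter probe. The order of the experiments differed on its dimmer probe. There experiment 5 was at -1.15, -1.22 and -1.19 in 2c, 4c and 8c, below experiment 3 at -0.88, -0.89 and -0.81.

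The experiments with animals of 12 and 14 weeks (2 experiments) were set against those with animals of 5 and 6 weeks (3 experiments) on the experiment means, a comparison added after the values were seen. In limma 0 members and 0% of features passed. At an unadjusted p of 0.05 there were 6 members (12.2%), where all features gave 13.3%. The arrays of the older animals were all above or all below those of the younger for 7 members (14.3%), Ahsg, Orm1, Vtn, Itih2, Fgb, Serping1 and Cfi, and for 4.56% of all features. Orm1 was higher in the older animals by 1.06 (SE 0.29, adjusted p = 0.29 in limma) and Serping1 by 0.34 (SE 0.13, adjusted p = 0.37 in limma). Ahsg had a difference of -0.83 (SE 0.15, adjusted p = 0.26 in limma), Itih2, an inter-alpha-trypsin inhibitor heavy chain, of -0.44 (SE 0.12, adjusted p = 0.29 in limma) and Fgb of -0.38 (SE 0.12, adjusted p = 0.32 in limma). The Ahsg values are of its brighter probe, and on the dimmer one the arrays of older and younger animals overlapped.

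Slide and age nearly coincided. Slide 1 held all arrays of experiments 1 and 2 together with 2c and 4c of experiment 3. Slide 2 held the remaining 7 arrays, so only experiment 3 spanned both slides. On slide 1 its 2c and 4c arrays gave 3.13 and 2.85 for Orm1 and 6.90 and 6.70 for Ahsg. On slide 2 its 8c array gave 3.099 for Orm1 and 7.02 for Ahsg. Slide and fraction coincide in that experiment, and the part of the slide in the differences between ages was not tested. Pancreatic acinar transcripts were abundant on 6 arrays, all 3 of experiment 2, 2c and 8c of experiment 1 and 8c of experiment 3. Of these 6, 5 came from the older animals. Without these 6 arrays the median difference of the members was -0.10 for 8c against 2c (all features 0.00), -0.06 for 4c against 2c (all features -0.03) and -0.05 for 8c against 4c (all features 0.02), with 0 features called in any comparison. Their part in the differences between ages was not tested. The dependence of the 8c to 2c difference on age was tested as an interaction, in which 0 members and 0 features passed and 0 members, beside 4.66% of features, had an unadjusted p under 0.05.

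**Figure D5:**
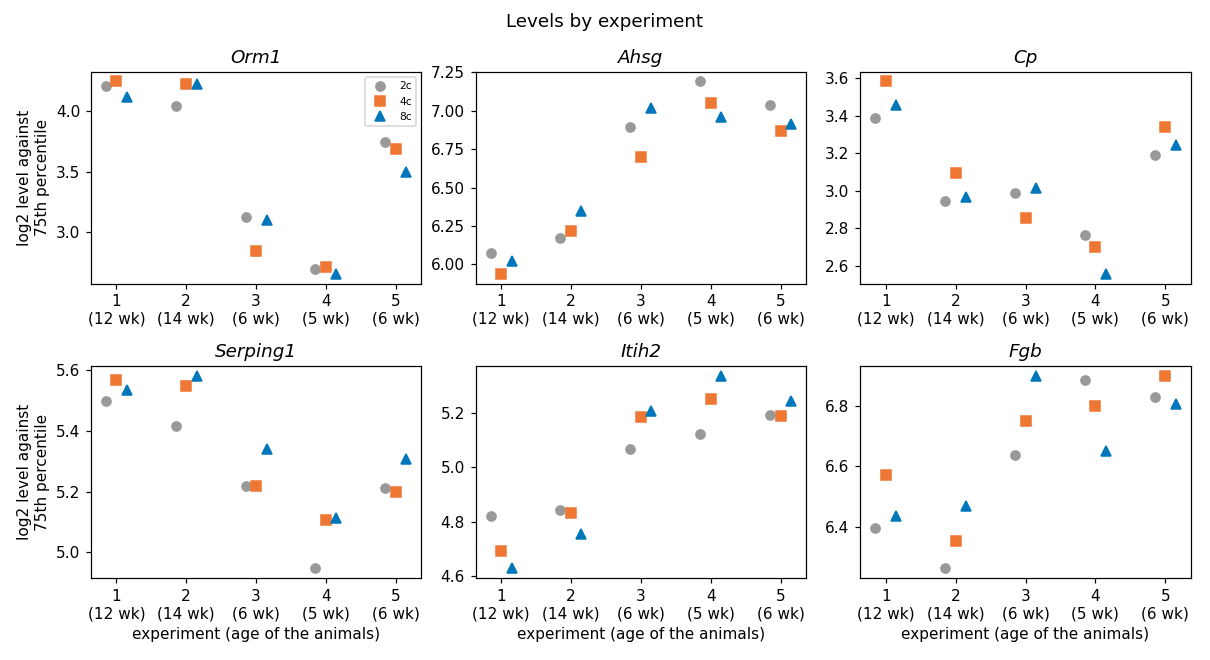
Log2 levels of Orm1, Ahsg, Cp, Serping1, Itih2 and Fgb on the 15 arrays by experiment, with the age of the animals in weeks and a symbol for each DNA content. The 3 fractions of an experiment lie close together for Orm1, and Orm1 and Ahsg run in opposite directions between experiments 1 and 4.

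Genes of the same pathways outside the 49 were counted as well. Of 24 further complement genes tested, 5 fell and 0 rose from 2c to 8c, and 4 fell from 2c to 4c. C1qb, a chain of the recognition subunit of the classical pathway, had levels of 2.07, -1.73, 0.27, -2.10 and 0.22 in 2c, -3.48, -4.73, -2.42, -3.25 and -4.07 in 4c, and -4.68, -5.61, -2.53, -3.58 and -5.28 in 8c. All 2c arrays lay above all others, and the 8c to 2c difference was -4.08 (SE 0.63, adjusted p = 0.0086 in limma). C1qa, Cfd and Colec11, a further C1q chain, the protease factor D and a collectin, were well above background on only 1, 1 and 2 of the 5 arrays of 8c. They were at least 14.2-fold, 9.47-fold and 30.1-fold higher in 2c than in 8c, with the dim arrays set at their background floor. The test in limma used the measured levels without that floor (adjusted p = 0.0054, 0.0081 and 0.0081). C1qc, the third chain, was at least 8.25-fold higher in 2c (adjusted p = 0.019 in limma).

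Markers of 3 other liver cell types fell as well. Of the Kupffer cell list, the resident macrophages, 8 of 10 tested genes fell from 2c to 8c, and the summed level was 0.91 to 3.99 in 2c, 0.32 to 0.69 in 4c and 0.14 to 0.76 in 8c. Of the stellate cell list 7 of 9 tested genes fell, with sums of 0.35 to 3.56 in 2c, -1.64 to -0.21 in 4c and -1.81 to -0.02 in 8c, and of the sinusoidal endothelial list 4 of 7, with sums of -1.39 to 1.30, -3.21 to -1.38 and -3.27 to -1.51. Marco and Timd4 of the Kupffer list and Dcn, Col1a1 and Lum of the stellate list were not well above background on any array. Of the cholangiocyte list 1 of 2 tested genes fell, and of the pancreatic acinar list 0 of 24, of the lymphocyte list 0 of 2 and of the platelet list 0 of 1 passed in 8c against 2c. The acinar sums were 4.03 to 10.4 in 2c, 3.75 to 7.76 in 4c and 4.01 to 9.56 in 8c. C1qa, C1qb and C1qc belong to the Kupffer list as well, and Colec11 to the stellate list. Hepatocyte markers had sums of 7.78 to 8.32 in 2c, 7.88 to 8.31 in 4c and 7.80 to 8.19 in 8c, and 11 of 13 were above background on all arrays. Among hepatocyte genes of the lobule's zones, 8 of 10 tested pericentral genes fell and 4 of 11 periportal genes rose from 2c to 8c. The part of these other cells in the members' values, among them the high F13b, Klkb1 and dim Masp1 values in 2c of experiment 1, was not tested.

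Of 48 further plasma protein genes tested, 1 was higher and 2 were lower in 8c against 2c. Igfbp2, a carrier of insulin-like growth factors, rose by 0.82 in 8c (SE 0.14, adjusted p = 0.014 in limma) and by 0.80 in 4c (SE 0.14, adjusted p = 0.036 in limma), in 5 of 5 experiments each. Its levels were -0.83, -1.06, -0.79, 0.29 and -0.43 in 2c, -0.12, -0.42, 0.27, 0.77 and 0.68 in 4c, and 0.43, -0.46, 0.03, 0.60 and 0.66 in 8c, so each polyploid array was above the 2c array of its experiment. Ces1c, a carboxylesterase of plasma, fell by 0.68 in 8c (SE 0.14, adjusted p = 0.036 in limma), and Lrg1, a leucine-rich glycoprotein, was at least 10.8-fold higher in 2c (adjusted p = 0.027 in limma).

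Of 14 tested further coagulation genes 1 passed in 8c against 2c, Anxa2, a receptor for plasminogen and its activator, at least 4.799-fold higher in 2c than in 8c (adjusted p = 0.026 in limma). Among 57 tested genes of the secretory pathway, which folds and exports these proteins, 0 passed in 8c against 2c. Of these 57, 5 had an unadjusted p under 0.05, where all features gave 14.9%, and the median difference was 0.04. Hspa5, the main chaperone of the endoplasmic reticulum, differed by 0.16 (SE 0.06, adjusted p = 0.21 in limma, higher in 5 of 5). Of 23 tested genes of acute phase signalling 0 passed and 6 had an unadjusted p under 0.05, beside the same 14.9% of all features. In 8c against 4c no gene of these 5 lists passed.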

How the data were processed

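RNA of 15 sorted samples, 5 per DNA content, was measured on 1 one-colour Cy3 array each. Values started from the processed signal in the scanner files deposited by the authors, a linear intensity corrected for background with Agilent Feature Extraction 11.5.1.1 per the file headers (10.7.3.1 per the submitters' processing notes) and not normalized between arrays. No spot was saturated.

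Control and outlier spots were left out, spots of a probe averaged, log2 taken, and each array scaled by subtracting its 75th percentile, taken from the 16212 probes that cleared background on every array. A probe was tested if well above background on at least 5 arrays, and the brightest stood for its gene, which gave 17417 features. Differences came from limma 3.58.1 in R 4.3.3 in 1 fit over all arrays with the experiment as a block, two-sided, with Benjamini-Hochberg adjustment over all features and a threshold of 0.05. The procedure was tested on simulated data. The series text names 5 independent experiments and the titles number 1 array per fraction in each, which is the basis of the block. Deviations of same-numbered arrays had a correlation over 0.1 in 14 of 15 pairs (median 0.58, lowest 0.042). Between arrays of different experiments and fractions it was over 0.1 in 16 of 60 pairs (median -0.13, highest 0.41). How many animals stood behind an experiment is not given. With the experiment as a block, the p-values between fractions rest on how much the fraction differences vary between these experiments. Where some arrays of the dimmer fraction did not clear background, the fold is a lower bound, with those arrays set at the lowest signal of any probe that did. The p-values printed beside such a bound come from the measured levels.

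The members, the pathway and marker lists and the rule for named genes were chosen with earlier results of these data known. Values on every array are given for members that passed, for the 3 largest rises and falls in each comparison, and for Alb, Ttr, Fga, Fgb, Fgg, F2, F9, Serpinc1, Plg, C3, Hp and Orm1, 24 members in all. Alternatives covered scaling, background correction, the filter, the probe rule, the deposited value table, the block, the slide, arrays with acinar transcripts, array weights and each experiment left out.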

Additional observations from a re-analysis of the deposited data

Results flagged for a closer look

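With 5 arrays in a fraction, Dixon's test at its 95% critical value of 0.71 singled out 4 values among 72 tests of named members, where chance gives about 1 in 20. Proc in 4c of experiment 2 was at 3.5936 while the other 4c arrays lay between 4.0399 and 4.1798. Proc in 8c of experiment 3 was at 3.9793, above the others at 3.4306 to 3.5593. Fgg in 2c of experiment 2 was at 5.6573, below the others at 6.1323 to 6.3253, and Plg in 2c of experiment 1 at 5.5863, below 5.9908 to 6.1136.

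For 7 members (14.3%, all features 6.68%) the 8c to 2c difference had one sign in both experiments with rats of 12 and 14 weeks and the opposite sign in all 3 with rats of 5 and 6 weeks. The older minus younger gap of that difference was 0.4031 for Alb, 0.4117 for Ttr, 0.2089 for Ambp, 0.2727 for Rbp4, -0.2737 for Itih2, 0.1954 for Itih4 and 0.2614 for Serpina1. The interaction was tested across all features and passed for 0 members, with an adjusted p of 0.95 in limma for Alb and Ttr. Alb, Ttr, Ambp, Rbp4 and Itih4 are among the members whose level followed the array's scaling point.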

How the results depend on the processing

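Under 19 other settings per comparison, the count of members past the threshold stayed at 0 except in the following cases. With normexp background correction followed by quantile normalization, 1 member, C6, was higher in 8c against 2c, beside 246 of all features (141 in the main setting). Under that setting 1, again C6, was higher in 4c against 2c, beside 80 (main 40). With array weights 2 members, F12 and C6, were higher in 4c against 2c, beside 300 features higher and 694 lower (main 40 and 161). With the 75th percentile taken over all probes, the median of the members, 4c against 2c, was 0.0486 instead of -0.0189, beside 0.0363 over all features. Without the replicate block 0 members passed in any comparison and the members' medians were as with it, while 6 features were called higher and 34 lower in 8c against 2c, 0 and 2 in 4c against 2c, and 0 and 0 in 8c against 4c. Within a slide, and without the arrays with acinar transcripts, 0 features were called in any comparison except 1 in 8c against 4c on slide 1, so the count of 0 members there says nothing about stability. The median of the members, 8c against 2c, was 0.0277 on slide 1 and -0.0751 on slide 2, and -0.1041 without the acinar arrays (main -0.0103), where that of all features was -0.0043. Leaving out each experiment in turn gave 0 members and, for 8c against 2c, a median of the members from -0.056 (without experiment 2) to 0.0114 (without experiment 5), while 49 to 113 features were called higher and 52 to 190 lower in 8c against 2c, and 0 to 60 and 3 to 125 in 4c against 2c. Among 456 values of named members in each comparison, the sign of an uncalled difference changed in 58 for 8c against 2c, 38 for 4c against 2c and 40 for 8c against 4c, so directions of small differences are not fixed. The number of all features called varied widely, from 0 to 385 higher and 0 to 652 lower in 8c against 2c. Without the 7 members that followed the scaling point, a setting chosen after seeing the data, the median of the members, 8c against 2c, was -4e-04. The causes of these changes were not tested.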
